A study of Mus musculus with 16 samples.

Results

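The insulin-like growth factor (IGF) system genes examined here were 10 mouse genes, chosen by symbol: the IGF-binding protein genes Igfbp1 to Igfbp7 and the receptor genes Igf1r, Igf2r and Insr. All 10 were found among the 54532 genes measured. Their transcripts were followed in hepatocytes, the main cell type of the liver, that were grown alone or with cancer cells, with or without an inhibitor of the chemokine receptor CXCR2. Of the 10 genes, 7 had a mean of 1 FPKM (fragments counted in a gene, scaled to its length in kilobases and to library depth) or more over all libraries and were tested among 11395 such genes. Igfbp2, Igfbp5 and Igfbp6 were below that level.

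The data were 16 RNA-seq libraries in 5 groups. Hepatocytes grew alone (n = 3), with Phgdh WT cancer cells (n = 3), with Phgdh KO cancer cells (n = 3), with Phgdh WT cancer cells plus the CXCR2 inhibitor (n = 3), or with Phgdh KO cancer cells plus that inhibitor (n = 4). Phgdh encodes the enzyme that starts serine synthesis, and the knockout lay in the cancer cells and not in the hepatocytes. The sample labels give mouse hepatocytes as the material of every library, whereas the design text of the series describes sequencing of the cancer cells, there named HY19636. The labels were followed. The inhibitor's name, dose and duration, the vehicle, the culture format, the age or strain of the hepatocyte source, and whether the knockout is 1 clone were stated in no label. The inhibitor was always given together with cancer cells, so an effect of the inhibitor on hepatocytes by themselves cannot be told apart from an effect that runs through the cancer cells. Separate cultures for the replicates were not stated, and p-values therefore cover only the spread between these libraries, which may be technical.

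IGF-1 and IGF-2 are growth factors related to insulin, and most of the IGF in blood and tissue fluid is held by binding proteins that set how much can reach receptors. IGFBP1 to IGFBP6 bind IGFs with high affinity, while IGFBP7 is a related secreted protein of low IGF affinity. The IGF-1 receptor and the insulin receptor are tyrosine kinases that signal through IRS adaptors, PI3-kinase and AKT, and the IGF-2 receptor removes IGF-2 and sorts lysosomal enzymes. In the liver, hepatocytes are the classic source of IGFBP1 and of circulating IGF-1 and carry many insulin receptors, whereas mature hepatocytes are known for little IGF-1 receptor, and hepatic IGFBP3 is mostly ascribed to non-parenchymal cells.

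Libraries held 15.0 to 21.3 M fragments, and a single fragment in a gene of 1 kb equalled 0.0457 to 0.0648 FPKM. Of 9 hepatocyte markers, 8 were matched in the table, and all 8 averaged at least 1 FPKM, but their summed level differed widely between groups: 248 to 255 FPKM alone, 126 to 132 with WT cells, 150 to 153 with KO cells, 745 to 762 with WT cells and inhibitor, and 953 to 1012 with KO cells and inhibitor. Of 6 cholangiocyte markers, 5 averaged 1 FPKM or more, summing to 1224 to 1243 FPKM alone, 411 to 447 in co-culture without inhibitor and 554 to 602 with it, so biliary genes were high even in the libraries labelled as hepatocytes alone. Of 8 pancreatic epithelium markers, 2 (Msln and Lgals4) averaged 1 FPKM or more, with sums of 195 to 205 FPKM alone, 171 to 205 in co-culture and 362 to 423 with inhibitor. No marker of stellate cells and fibroblasts (9 genes), endothelial cells (8), macrophages (7) or neutrophils (5) averaged 1 FPKM, and no library exceeded 0.422 FPKM for the sum of any of these lists. Col1a2, Col3a1, Lrat, Lum, Clec4g, Adgre1, Clec4f and Marco were listed at 0 in every library. The part of the shifting hepatocyte, biliary and Msln levels in the results that follow was not tested. In such bulk samples, fewer cells of a type and less RNA per cell cannot be told apart.

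Igfbp7 and Igfbp4 supplied most of the binding protein transcripts, and Igfbp1 had the widest range. The highest group mean exceeded the lowest 40.1-fold for Igfbp1, 4.74-fold for Igfbp3, 4.14-fold for Igfbp7, 2.47-fold for Igf2r, 2.45-fold for Igf1r, 1.61-fold for Insr and 1.58-fold for Igfbp4. Co-culture raised Igfbp1, Igfbp3, Igfbp4, Igf2r and Insr and lowered Igfbp7 and Igf1r. The inhibitor raised Igfbp1 further, raised Igfbp7 part of the way back to its level alone, and lowered Igf1r and Igfbp3.

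**Figure D1:**
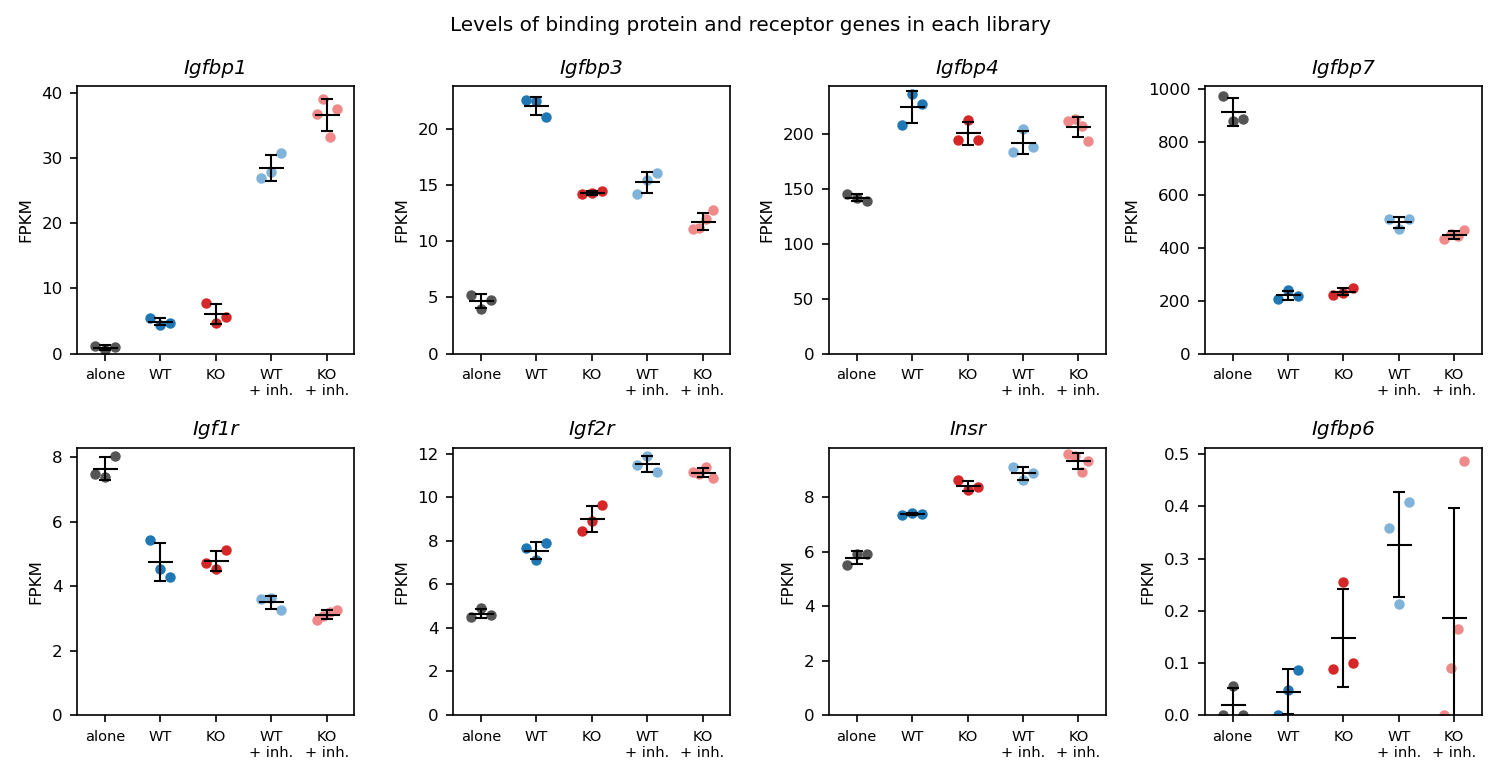
FPKM of 8 genes (vertical axes, each from 0) in hepatocytes alone, with Phgdh WT or KO cancer cells, and with each plus the CXCR2 inhibitor (inh.). Points are libraries and bars are mean ± SD over 3 or 4 libraries; Igfbp1 lies between 0.493 and 1.23 FPKM alone and between 27.0 and 39.2 FPKM with the inhibitor, while Igfbp6 stays below 0.5 FPKM.

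Igfbp1 (ENSMUSG00000020429, GRCm38 chr11:7197782-7202546, plus strand) encodes a secreted IGF-binding protein whose liver transcription is classically repressed by insulin and raised in fasting and stress. Its neighbour Igfbp3 (ENSMUSG00000020427, chr11:7206086-7213923, minus strand) lies 3539 bases away, with the 3′ ends of both genes facing each other and no gene between them. Since these adjacent genes gave the most divergent responses to the inhibitor among the high-affinity binding protein genes, the 250 bases before their start sites are shown (RefSeq, build GRCm38.p6, 5′ to 3′ on the strand of each gene). Capitals mark the insulin response element, the palindrome-like element bound by FOXO factors.
Igfbp1, chr11:7197537-7197786, plus strand: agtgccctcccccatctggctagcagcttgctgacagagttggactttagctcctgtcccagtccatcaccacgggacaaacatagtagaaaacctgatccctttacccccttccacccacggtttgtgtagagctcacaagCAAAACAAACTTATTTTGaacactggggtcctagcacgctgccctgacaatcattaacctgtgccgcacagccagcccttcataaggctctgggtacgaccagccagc
Igfbp3, chr11:7213924-7214173, minus strand: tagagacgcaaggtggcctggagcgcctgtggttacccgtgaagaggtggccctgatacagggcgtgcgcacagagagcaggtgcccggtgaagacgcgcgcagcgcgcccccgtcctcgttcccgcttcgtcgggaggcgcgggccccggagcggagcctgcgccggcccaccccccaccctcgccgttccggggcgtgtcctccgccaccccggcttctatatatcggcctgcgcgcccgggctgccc
The 18 bases in capitals lie at chr11:7197679-7197696 and begin 108 bases before the start. Since this exact string was copied from the Igfbp1 window, its count over the 32851 RefSeq promoter windows of this length, 1, was all but fixed beforehand. Looser forms of the element were not counted, so whether it is particular to Igfbp1 was not tested. The last 5 bases of the Igfbp1 window are exonic in GENCODE M21. In all, 5 motifs were searched on both strands: CAAAACA (the first part of the insulin response element), GTAAACA (a forkhead consensus), ACGTG (the hypoxia response core), TGATGCAA (a C/EBP-ATF composite) and the HNF1 consensus. CAAAACA was found in 5.56% of all windows, GTAAACA in 3.17%, ACGTG in 16.6%, TGATGCAA in 0.791% and the HNF1 consensus in 0.0609%. The Igfbp1 window held CAAAACA, within the capitals, and the Igfbp3 window held none of these letters. Among the other members with a RefSeq window, ACGTG was found in Igf2r (4 matches), Igfbp7 (1) and Igfbp2 (2), and the rest held none of the motifs. In Igf2r and Igfbp2 the matches lay in the palindrome CACGTG, where each site gave 2 matches, 1 on each strand. These counts are therefore of matches and not of separate sites. A match describes letters only, and binding was not measured.

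In hepatocytes alone, Igfbp1 stood at 1.23, 0.493 and 1.03 FPKM (12 to 32 fragments), close to the edge of what this depth resolves. It stood at 5.46, 4.39 and 4.72 FPKM with WT cells, and at 7.75, 4.75 and 5.59 FPKM with KO cells. With the inhibitor it reached 27.0, 27.9 and 30.8 FPKM beside WT cells, and 36.8, 39.2, 33.3 and 37.6 FPKM beside KO cells. The groups formed 4 separate steps, since only the co-cultures without inhibitor overlapped. On the log2(FPKM + 1) scale, where the added 1 understates changes of low genes, the rise over monoculture was 1.63 ± 0.15 (SE; limma, Benjamini-Hochberg adjusted p = 2.72e-07) with WT cells and 1.87 ± 0.15 (adjusted p = 5.78e-08) with KO cells. On recovered fragments with limma's voom, the rise with WT cells was 2.47 (adjusted p = 8.68e-06). The inhibitor added 2.34 ± 0.15 beside WT cells (adjusted p = 3.98e-09) and 2.44 ± 0.14 beside KO cells (adjusted p = 9.98e-10). Igfbp1 thus ended 3.97 and 4.32 log2 units above monoculture, ranking 25 and 16 by absolute change among the 11395 genes tested.

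Igfbp3 encodes the main carrier of IGFs in blood, where it joins the acid-labile subunit in a ternary complex. It measured 5.22, 3.98 and 4.76 FPKM alone, 22.6, 22.5 and 21.1 FPKM with WT cells, and 14.2, 14.3 and 14.5 FPKM with KO cells. With the inhibitor the values were 14.2, 15.5 and 16.1 FPKM beside WT cells and 11.1, 11.2, 11.96 and 12.8 FPKM beside KO cells. All co-cultures lay above monoculture, the WT co-culture was highest, and of neighbouring groups only the KO co-culture and the WT co-culture with inhibitor overlapped. Igfbp3 rose by 2.03 ± 0.07 log2 units with WT cells (limma, adjusted p = 5.72e-12) and by 1.45 ± 0.07 with KO cells (adjusted p = 2.78e-10). The inhibitor lowered it by -0.50 ± 0.07 beside WT cells (adjusted p = 2.52e-05) and by -0.27 ± 0.07 beside KO cells (adjusted p = 0.00292). Igfbp3 and Igfbp1 therefore rose together in co-culture and moved in opposite directions when the inhibitor was added. Of the non-parenchymal marker lists, those of stellate cells and fibroblasts, endothelial cells and macrophages were at or near 0 FPKM in these libraries, and that of cholangiocytes was not.

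Igfbp4 (ENSMUSG00000017493, chr11:99041244-99054392, plus strand) encodes a binding protein that generally restrains IGF action until a protease cleaves it. It was at 145, 142 and 139 FPKM alone, at 209, 237 and 228 FPKM with WT cells, and at 194, 213 and 194 FPKM with KO cells. With the inhibitor it was at 184, 204 and 188 FPKM beside WT cells and at 212, 214, 207 and 194 FPKM beside KO cells. Every co-culture library lay above every monoculture library, and neighbouring co-culture groups overlapped. The rise over monoculture was 0.65 ± 0.06 with WT cells (limma, adjusted p = 1.44e-07) and 0.49 ± 0.06 with KO cells (adjusted p = 3.08e-06). With the inhibitor Igfbp4 fell by 0.22 ± 0.06 beside WT cells (adjusted p = 0.00341), whereas beside KO cells the difference was 0.04 ± 0.05 (adjusted p = 0.492, 95% interval -0.07 to 0.16).

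The other high-affinity binding protein genes were barely detected. Igfbp2 (ENSMUSG00000039323, chr1:72824503-72852474), whose product is abundant in fetal liver and serum, had 3 fragments in all 16 libraries together. Its neighbour Igfbp5 (ENSMUSG00000026185, chr1:72857932-72874884), 5457 bases away, had 10 fragments, 7 of them with KO cells and none in the 7 libraries with inhibitor. Igfbp6 (ENSMUSG00000023046, chr15:102144362-102149511), which prefers IGF-2, had 47 fragments in 12 libraries. It was at 0, 0.0564 and 0 FPKM alone, at 0, 0.0474 and 0.0858 FPKM with WT cells, and at 0.358, 0.214 and 0.408 FPKM with WT cells and inhibitor. With KO cells Igfbp6 was at 0.0886, 0.256 and 0.0996 FPKM, and with KO cells and inhibitor at 0, 0.0901, 0.165 and 0.487 FPKM. Without the filter on low values, Igfbp6 was higher with the inhibitor beside WT cells by 0.34 ± 0.11 (limma, adjusted p = 0.0348), a call that rests on 18 against 3 fragments, and beside KO cells the difference was 0.03 ± 0.11 (adjusted p = 0.908, 95% interval -0.20 to 0.27). The difference between these inhibitor effects on Igfbp6 did not pass (-0.31 ± 0.16, limma, adjusted p = 0.735). Igfbp5 was lower with the inhibitor beside KO cells by -0.03 ± 0.01 in that fit (adjusted p = 0.0484), on 0 against 7 fragments.

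Igfbp7 (ENSMUSG00000036256, chr5:77349240-77408041, minus strand), the low-affinity relative also known as a secreted matrix-associated protein, was the most abundant member. It measured 971, 877 and 887 FPKM alone, 205, 238 and 217 FPKM with WT cells, and 221, 230 and 249 FPKM with KO cells. The inhibitor groups lay between, at 506, 471 and 508 FPKM beside WT cells and 432, 450, 444 and 467 FPKM beside KO cells. Monoculture was above both inhibitor groups and these were above the co-cultures without inhibitor, with overlap only between the latter. Igfbp7 fell by 2.05 ± 0.06 log2 units with WT cells (limma, adjusted p = 8.75e-13) and by 1.96 ± 0.06 with KO cells (adjusted p = 1.52e-12). The inhibitor raised it by 1.17 ± 0.06 (adjusted p = 4.12e-10) and 0.94 ± 0.06 (adjusted p = 1.96e-09), and it remained -0.88 ± 0.06 (adjusted p = 1.18e-08) and -1.02 ± 0.06 (adjusted p = 8.31e-10) below monoculture. Igfbp7 shares 85 exon bases with Polr2b on the opposite strand, which was at 19.0 to 29.0 FPKM, and the labels do not state whether fragments were counted by strand.

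Igf1r (ENSMUSG00000005533, chr7:67952827-68233668, plus strand), the receptor through which IGFs drive growth, was highest in hepatocytes alone. It stood at 7.48, 7.39 and 8.05 FPKM alone, at 5.43, 4.55 and 4.30 FPKM with WT cells, and at 4.72, 4.52 and 5.12 FPKM with KO cells. With the inhibitor it stood at 3.59, 3.64 and 3.27 FPKM beside WT cells and at 2.95, 3.08, 3.19 and 3.26 FPKM beside KO cells. The order was thus monoculture, co-culture, co-culture with inhibitor, and no library of one of these levels reached the next. Igf1r fell by 0.59 ± 0.07 with WT cells (limma, adjusted p = 3.60e-06) and by 0.58 ± 0.07 with KO cells (adjusted p = 4.51e-06), and with the inhibitor by a further 0.35 ± 0.07 (adjusted p = 0.000442) and 0.49 ± 0.06 (adjusted p = 9.75e-06).

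Insr (ENSMUSG00000005534, chr8:3122061-3279617, minus strand), the insulin receptor gene, moved the other way within a narrow range. It measured 5.52, 5.94 and 5.92 FPKM alone, 7.37, 7.44 and 7.40 FPKM with WT cells, and 8.64, 8.28 and 8.37 FPKM with KO cells. With the inhibitor it measured 9.13, 8.64 and 8.88 FPKM beside WT cells and 9.58, 9.51, 8.94 and 9.35 FPKM beside KO cells. Monoculture was lowest, the WT co-culture next, and the remaining neighbours in the order overlapped. Insr rose by 0.31 ± 0.04 with WT cells (limma, adjusted p = 9.18e-06) and by 0.47 ± 0.04 with KO cells (adjusted p = 8.96e-08), and with the inhibitor by 0.23 ± 0.04 (adjusted p = 0.000113) and 0.13 ± 0.04 (adjusted p = 0.00534).

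Igf2r (ENSMUSG00000023830, chr17:12682406-12769664, minus strand), the cation-independent mannose 6-phosphate receptor, followed the direction of Insr with larger steps. It was at 4.498, 4.90 and 4.60 FPKM alone, at 7.67, 7.13 and 7.88 FPKM with WT cells, and at 8.46, 8.91 and 9.65 FPKM with KO cells. With the inhibitor it was at 11.5, 11.9 and 11.2 FPKM beside WT cells and at 11.2, 11.1, 11.4 and 10.9 FPKM beside KO cells. Only the inhibitor groups overlapped in this order. Igf2r rose by 0.60 ± 0.05 with WT cells (limma, adjusted p = 9.22e-08) and by 0.82 ± 0.05 with KO cells (adjusted p = 2.41e-09), and with the inhibitor by 0.55 ± 0.05 (adjusted p = 1.94e-07) and 0.28 ± 0.05 (adjusted p = 9.09e-05). The antisense RNA Airn, which overlaps Igf2r on the opposite strand without sharing annotated exon bases, was at 0.173 to 2.68 FPKM.

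**Figure D2:**
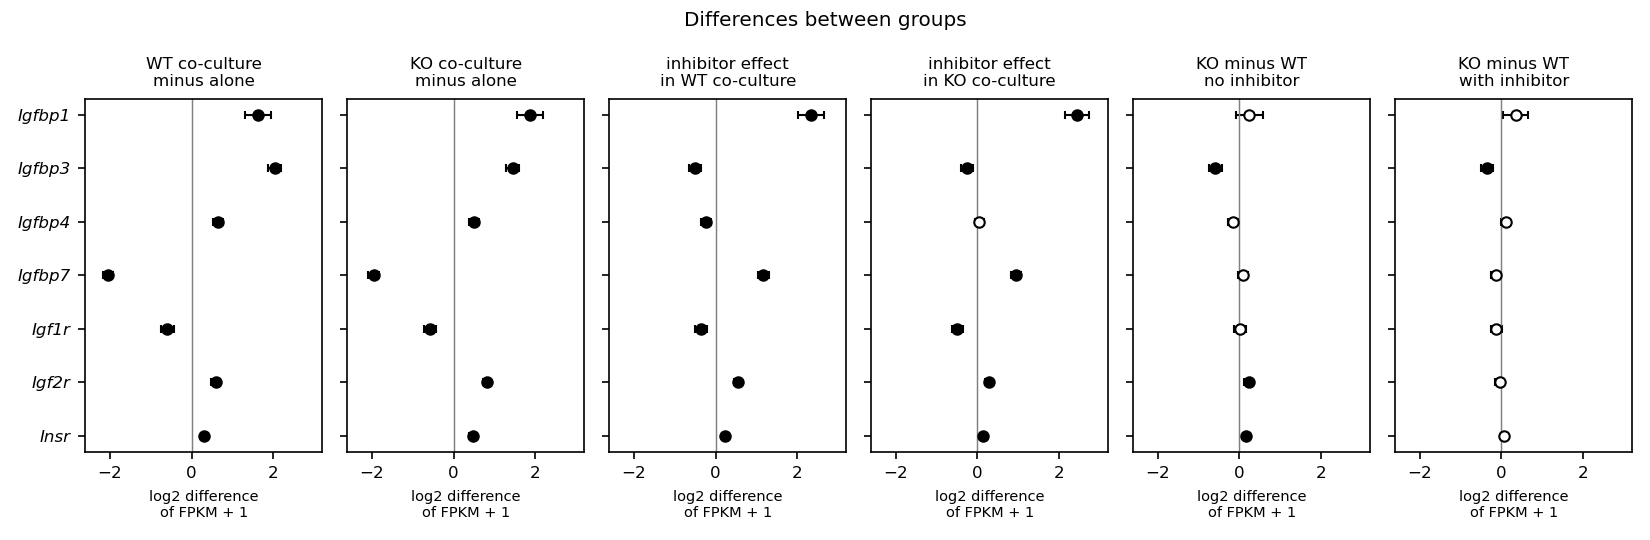
Difference in log2(FPKM + 1) (horizontal axis) for the 7 tested genes in 6 comparisons, with 95% intervals from limma. Filled points have an adjusted p below 0.05; Igfbp1 is the rightmost gene in both inhibitor panels, at 2.34 and 2.44, and Igfbp3 is the only gene with a filled point below 0 in both KO minus WT panels.

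With Igfbp7 lower and Igfbp4 higher, the make-up of the binding protein transcripts changed in co-culture. Igfbp7 made up 86.1% ± 0.398 (SD, n = 3) of the summed Igfbp1 to Igfbp7 FPKM alone, 46.7% ± 0.690 (n = 3) with WT cells and 51.3% ± 2.12 (n = 3) with KO cells. With the inhibitor its share was 67.7% ± 1.90 (n = 3) and 63.7% ± 1.40 (n = 4). Igfbp4 supplied most of the rest, with 13.4% alone, 47.6% and 44.1% in the co-cultures and 26.3% and 29.4% with the inhibitor. Leaving out Igfbp7, the summed high-affinity binding protein FPKM was 148 ± 3.73 alone, 251 ± 13.8 and 221 ± 9.83 with WT and KO cells, and 236 ± 11.2 and 255 ± 8.72 with the inhibitor (SD). Within that sum Igfbp1 went from 0.619% alone to 1.94% and 2.74% in the co-cultures and to 12.1% and 14.4% with the inhibitor.

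The receptor ratio changed in the same libraries. The Igf1r to Insr ratio of FPKM was 1.32 ± 0.0656 (SD) alone, 0.643 ± 0.0824 and 0.568 ± 0.0374 in the WT and KO co-cultures, and 0.394 ± 0.0267 and 0.334 ± 0.0225 with the inhibitor. Igf1r transcripts thus outnumbered those of Insr per length only in hepatocytes alone. The Igfbp1 to Igfbp3 ratio was 0.192 ± 0.0595 alone, 0.220 ± 0.0236 and 0.421 ± 0.111 in the co-cultures, and 1.87 ± 0.0581 and 3.13 ± 0.327 with the inhibitor. Over the 7 co-culture libraries with inhibitor and the 6 without, the Igf1r to Insr ratio ranged from 0.308 to 0.422 and from 0.546 to 0.736, and the Igfbp1 to Igfbp3 ratio from 1.81 to 3.49 and from 0.195 to 0.546. The summed high-affinity FPKM overlapped, at 226 to 264 FPKM with and 215 to 264 FPKM without the inhibitor. These ratios and shares combine the member values given above and were not tested separately.

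**Figure D3:**
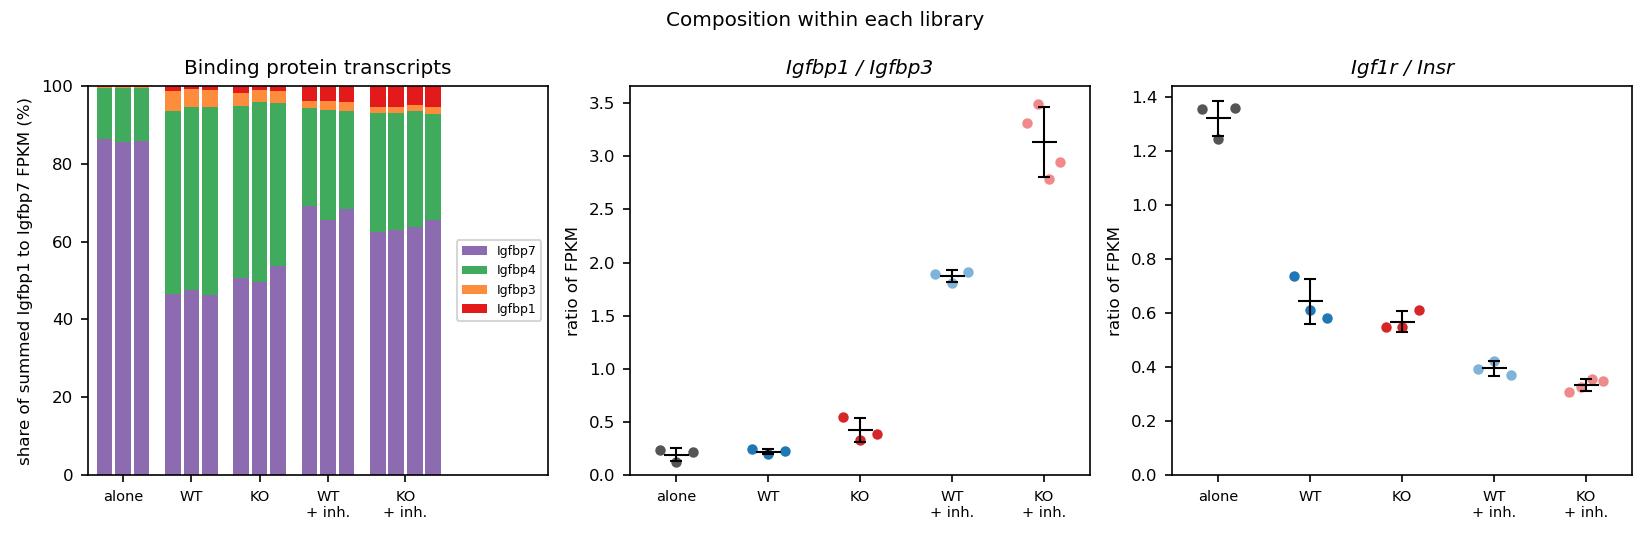
Left, share of each binding protein gene in the summed Igfbp1 to Igfbp7 FPKM (%), 1 bar per library; middle and right, ratios of FPKM per library with mean ± SD. The Igfbp7 share drops from 86.1% alone to 46.7% with WT cells, and the Igfbp1 to Igfbp3 ratio lies above 1.8 in every library with inhibitor (inh.) and below 0.55 in every other library.

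Counted over the tested members, co-culture with WT cells against monoculture raised 5 (Igfbp1, Igfbp3, Igfbp4, Igf2r, Insr) and lowered 2 (Igfbp7, Igf1r) of 7, where 30.1% of all tested genes were called higher and 31.9% lower (limma, adjusted p below 0.05). The median log2 difference was 0.60 over the members and 0.01 over all genes tested. Co-culture with KO cells gave the same split of 5 higher and 2 lower, beside 30.3% and 31.2% of all genes, with medians of 0.49 and 0.01. Those comparisons share the monoculture libraries. The shares of all genes are large, so that a called member is not in itself unusual here.

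With the inhibitor, 4 of 7 members rose in the WT co-culture (Igfbp1, Igfbp7, Igf2r, Insr) and 3 fell (Igfbp3, Igfbp4, Igf1r), beside 33.5% and 33% of all genes tested. In the KO co-culture 4 rose and 2 fell (Igfbp3, Igf1r), beside 34.8% and 34.7%. Member medians were 0.23 and 0.13, against -0.01 over all genes in both. The summed hepatocyte markers were several times higher in the inhibitor libraries, as given above, and their part in these changes was not tested. Of the 7 members, the inhibitor moved Igfbp7, Igfbp3 and, beside WT cells, Igfbp4 toward their monoculture level, and it moved Igfbp1, Igf1r, Igf2r and Insr further away from it.

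Against monoculture, the WT co-culture with inhibitor had 5 members higher and 2 lower, beside 32.1% and 34.7% of all genes tested (limma). The KO co-culture with inhibitor again had 5 higher and 2 lower, beside 33.3% and 36.1%. The higher genes were Igfbp1, Igfbp3, Igfbp4, Igf2r and Insr in both, and the lower ones Igfbp7 and Igf1r. Igf2r was 1.15 ± 0.05 (adjusted p = 6.74e-11) and 1.10 ± 0.05 (adjusted p = 3.79e-11) above monoculture, and Igf1r -0.94 ± 0.07 (adjusted p = 2.12e-08) and -1.07 ± 0.06 (adjusted p = 1.99e-09). Igfbp3 was still 1.53 ± 0.07 (adjusted p = 1.79e-10) and 1.18 ± 0.07 (adjusted p = 1.17e-09) above it.

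Fewer members were called by the genotype of the cancer cells than by co-culture or by the inhibitor. Without inhibitor, 2 members were higher with KO than with WT cells (Igf2r, Insr) and 1 was lower (Igfbp3), beside 1.65% and 1.34% of all genes tested. Igfbp3 was lower by -0.59 ± 0.07 (limma, adjusted p = 0.000536), with 14.2 to 14.5 FPKM against 21.1 to 22.6 FPKM. Igf2r was higher by 0.22 ± 0.05 (adjusted p = 0.0276) and Insr by 0.17 ± 0.04 (adjusted p = 0.0388), without overlap of the groups. The Igf2r call was lost without WT library 2 (adjusted p = 0.0939), KO library 2 (0.0698) or KO library 3 (0.123), and the Insr call was lost without any 1 of the 6 libraries (0.0623 to 0.139). In a fit of these 2 groups alone the adjusted p was 0.365 for Igf2r and 0.363 for Insr. The remaining members did not pass: Igfbp1 differed by 0.25 (adjusted p = 0.520, 95% interval -0.08 to 0.57), Igfbp4 by -0.16 (0.189, -0.28 to -0.04), Igfbp7 by 0.08 (0.607, -0.05 to 0.22) and Igf1r by 0.01 (0.967, -0.14 to 0.16).

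With the inhibitor, 1 member was lower with KO than with WT cells (Igfbp3) and none was higher, beside 0.649% and 1.66% of all genes. Igfbp3 differed by -0.35 ± 0.07 (limma, adjusted p = 0.0143), and the call was lost without library 2 (0.0606) or library 3 (0.0844) of the WT co-culture with inhibitor. Igfbp1 was 33.3 to 39.2 FPKM beside KO cells and 27.0 to 30.8 FPKM beside WT cells, which did not overlap, but its difference of 0.35 had an adjusted p of 0.306 (95% interval 0.05 to 0.65). That difference passed with voom (0.36, adjusted p = 0.0212) and in a fit of these 2 groups alone (adjusted p = 0.0381). Igfbp7 (-0.14, adjusted p = 0.305) and Igf1r (-0.13, adjusted p = 0.466) did not pass, although every KO library was below every WT library. The share of all genes without overlap was not counted, so this separation cannot be called unusual.

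Whether the inhibitor acted differently beside KO and WT cells was tested as an interaction. No member passed with limma, and 4 of 7 had an unadjusted p below 0.05 (Igfbp3, Igfbp4, Igfbp7, Igf2r), beside 10.9% of all genes at that unadjusted threshold. At the adjusted threshold 0.535% of all genes were called higher and 0.281% lower. With voom no member passed either, and with quantile normalization 1 did (Igfbp4, 0.27, adjusted p = 0.0238). The interaction nearest the threshold was that of Igf2r, whose inhibitor effects differed by -0.27 ± 0.07 (KO minus WT, adjusted p = 0.0987, 95% interval -0.42 to -0.12). Igfbp4, whose inhibitor effect passed beside WT cells and not beside KO cells, had an interaction of 0.26 ± 0.08 (adjusted p = 0.176), so that a difference between genotypes was not shown.

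Other genes of the insulin-IGF pathway were described from a list of 59 genes, all found in the table, of which 42 were tested. The ligand genes were scarcely transcribed: Igf2, Ins1 and Ins2 were listed at 0 in every library, and Igf1, the ligand that liver supplies to the blood, averaged 0.377 FPKM alone, 0.108 and 0.241 FPKM with WT and KO cells, and 0.136 and 0.116 FPKM with the inhibitor. Pappa, the protease that cleaves IGFBP4, was also listed at 0 throughout, its relative Pappa2 was above 0 in 1 library and the insulin receptor-related gene Insrr in 4. In the WT co-culture against monoculture 12 of the 42 were higher and 18 lower (limma), beside 30.1% and 31.9% of all genes, and in the KO co-culture 15 were higher and 17 lower, beside 30.3% and 31.2%. The inhibitor raised 20 and lowered 16 beside WT cells, beside 33.5% and 33% of all genes, and raised 20 and lowered 15 beside KO cells, beside 34.8% and 34.7%. List medians were -0.08, -0.02, 0.08 and 0.09 in these comparisons, against 0.01, 0.01, -0.01 and -0.01 over all genes.

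Genes acting on binding proteins outside the cell led the rises of the list in co-culture. Stc2, whose product stanniocalcin-2 blocks PAPP-A, stood at 6.06, 5.75 and 4.72 FPKM alone, 19.8, 21.5 and 20.5 FPKM with WT cells, and 21.1, 23.4 and 20.7 FPKM with KO cells. With the inhibitor it was at 5.29, 6.10 and 6.02 FPKM beside WT cells and 4.54, 4.38, 4.95 and 4.75 FPKM beside KO cells. Stc2 rose by 1.73 ± 0.08 and 1.81 ± 0.08 in co-culture (limma, adjusted p = 5.72e-11 and 3.67e-11) and fell by 1.67 ± 0.08 and 2.01 ± 0.07 with the inhibitor (adjusted p = 8.98e-11 and 4.61e-12). Against monoculture, Stc2 with the inhibitor differed by 0.07 ± 0.08 beside WT cells (adjusted p = 0.462, 95% interval -0.10 to 0.23) and was lower by -0.20 ± 0.07 beside KO cells (adjusted p = 0.0229), with overlapping libraries. The latter call was lost without monoculture library 1 (0.128) or 2 (0.0858), without KO library 2 with inhibitor (0.0594), with voom (0.185) and after rescaling without mitochondrial and top genes (0.0555). Htra1, a secreted serine protease that can cleave IGF-binding proteins, had a like rise, from a mean of 3.45 FPKM alone to 15.8 and 13.4 FPKM with WT and KO cells. With the inhibitor Htra1 dropped below its monoculture level, to 0.707 and 0.678 FPKM, a log2 difference of -3.30 ± 0.08 beside WT cells and -3.11 ± 0.08 beside KO cells (adjusted p = 1.41e-13 and 1.11e-13). Igfals, which encodes the acid-labile subunit that completes the IGFBP3 complex, averaged 2.79 FPKM alone, 3.69 FPKM in both co-cultures, and 1.03 and 1.35 FPKM with the inhibitor. The inhibitor lowered Igfals by -1.22 ± 0.11 and -1.001 ± 0.11 (adjusted p = 2.54e-07 and 9.06e-07). The Igfals rise in co-culture, 0.31 ± 0.11 with WT cells (adjusted p = 0.0263), was lost without monoculture library 1 (0.0790) or 3 (0.119) and without WT library 1 (0.0912) or 3 (0.0640). This call was also lost with a pseudocount of 0.1 (0.0530), with no filter (0.0659) and in a fit of only the groups compared (0.0628). Beside KO cells the Igfals rise was 0.32 ± 0.11 (adjusted p = 0.0259) and was lost without monoculture library 1 (0.0774) or 3 (0.118) and without KO library 1 (0.0558) or 2 (0.0672). A pseudocount of 0.1 (0.0517) and no filter (0.0654) also lost it.

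Ghr and Socs2, genes of growth hormone action, fell with the inhibitor. Ghr, the growth hormone receptor that drives hepatic IGF-1 synthesis, averaged 10.2 FPKM alone, 8.13 and 8.09 FPKM in the co-cultures, and 2.97 and 2.98 FPKM with the inhibitor. Its difference with the inhibitor was -1.20 ± 0.08 beside WT cells and -1.19 ± 0.07 beside KO cells (limma, adjusted p = 3.85e-09 and 1.68e-09). Socs2, a feedback inhibitor of growth hormone signalling, differed by -1.998 ± 0.07 and -1.91 ± 0.07 in the same comparisons (adjusted p = 7.60e-12 and 5.10e-12), from 7.63 to 1.17 FPKM and from 6.59 to 1.02 FPKM. Against monoculture, both were lower in each inhibitor group, Socs2 by -1.59 and -1.69 and Ghr by -1.49 in each.

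**Figure D4:**
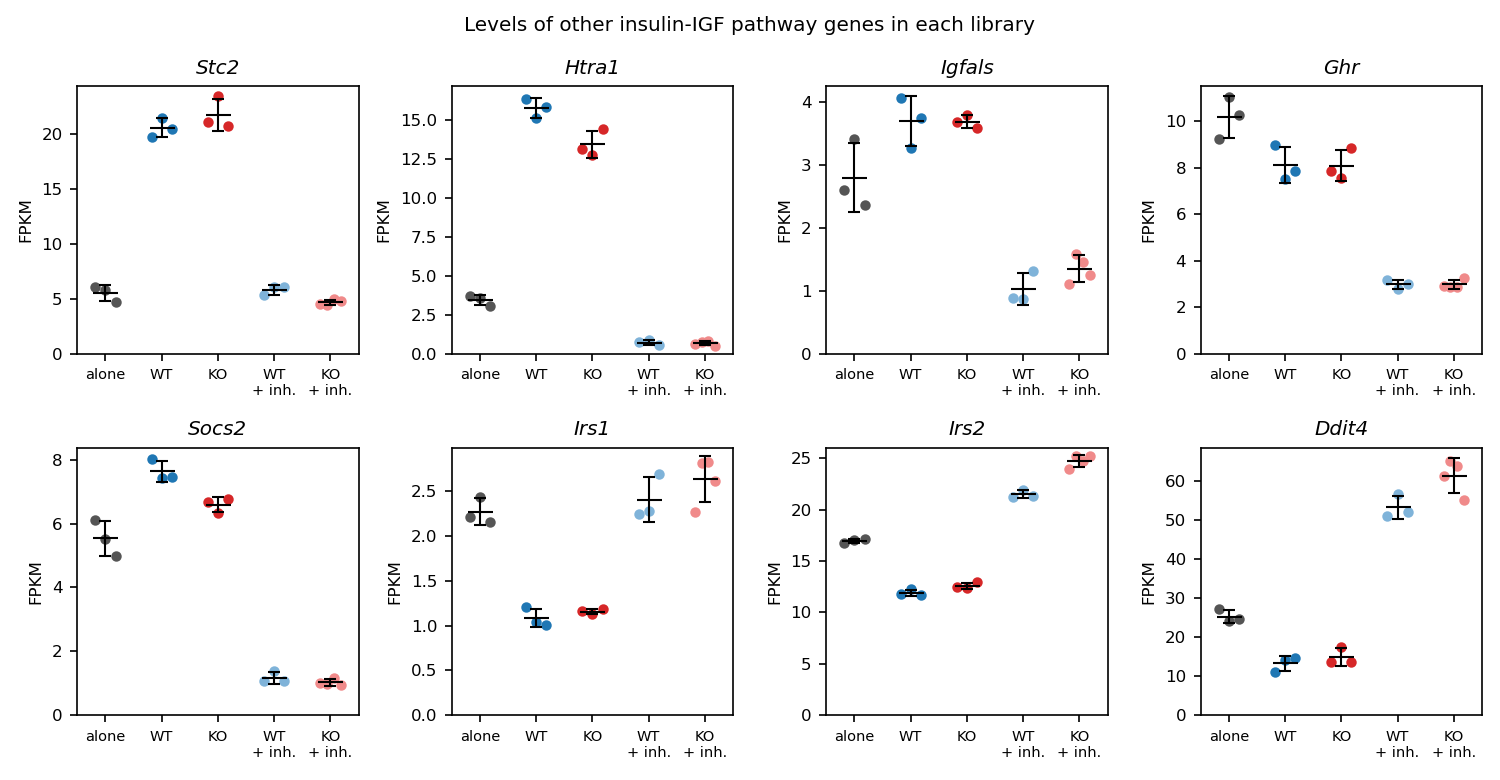
FPKM of 8 other insulin-IGF pathway genes (vertical axes, each from 0) per library, with mean ± SD, in the same 5 groups. Stc2 and Htra1 are high only in the co-cultures without inhibitor (inh.), Ghr, Socs2 and Igfals are lowest with it, and Irs2 and Ddit4 are highest with it.

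Irs1 and Irs2, which link the receptors to PI3-kinase, fell in co-culture and rose with the inhibitor. Irs2 averaged 17.0 FPKM alone, 11.9 and 12.6 FPKM in the co-cultures and 21.5 and 24.8 FPKM with the inhibitor, a rise of 0.80 ± 0.03 beside WT cells and 0.92 ± 0.03 beside KO cells (limma, adjusted p = 3.74e-11 and 3.22e-12). Irs1 averaged 2.27 FPKM alone, 1.08 and 1.16 FPKM in the co-cultures and 2.41 and 2.64 FPKM with the inhibitor, rising by 0.71 ± 0.07 and 0.75 ± 0.07 (adjusted p = 1.02e-06 and 2.34e-07). On recovered fragments with voom these Irs1 rises were 1.20 and 1.23. The adaptor genes Grb2 (-0.56 and -0.75) and Gab1 (-0.35 and -0.41) fell with the inhibitor beside WT and KO cells. Of the 8 mTOR branch genes, 6 rose with the inhibitor beside WT cells and 7 beside KO cells, where 33.5% and 34.8% of all genes were called higher. Rptor, which encodes a subunit of mTOR complex 1, fell in both (-0.51 and -0.55). The rises were led by Ddit4 and Deptor, which both encode inhibitors of mTOR. Mtor itself, Rictor, Rheb and Tsc1 also rose in both, and Tsc2 rose beside KO cells. Ddit4 went from 13.2 to 53.3 FPKM beside WT cells (1.94 ± 0.11, adjusted p = 6.67e-10) and from 14.9 to 61.4 FPKM beside KO cells (1.98 ± 0.10, adjusted p = 2.13e-10). Deptor rose by 1.44 ± 0.05 and 1.52 ± 0.05 (adjusted p = 5.86e-12 and 1.19e-12), and Igf2bp2, which encodes an RNA-binding protein named for Igf2 mRNA, rose by 0.84 ± 0.04 beside WT cells (adjusted p = 4.76e-10). Of the 4 FOXO genes, 2 rose (Foxo3, Foxo6) and 1 fell beside WT cells, where 33.5% and 33% of all genes rose and fell. Beside KO cells 3 rose (Foxo1, Foxo3, Foxo6) and 1 fell, where 34.8% and 34.7% did. Foxo4 was the gene that fell in each. Of the 4 FOXO or insulin responsive targets tested, 3 rose (Sesn3, Srebf1, Cited2) and 1 fell (Sesn1) with the inhibitor beside WT cells. Beside KO cells 2 rose (Srebf1, Cited2) and 0 fell, with the same shares of all genes as just given. Against monoculture all 4 were lower in both inhibitor groups, beside 34.7% (WT) and 36.1% (KO) of all genes. The FOXO and insulin targets G6pc and Pck1 averaged less than 1 FPKM over all libraries and were not tested. Grb2, Gab1, Tsc1, Tsc2, Rheb, Mtor, Rictor, Rptor, Foxo1, Foxo3, Foxo4, Foxo6, Sesn1, Sesn3, Srebf1, Cited2 and G6pc were named here after their values were seen. G6pc, the last enzyme of hepatic glucose output, was at most 0.130 FPKM in the 9 libraries without inhibitor and at 1.44 to 2.37 FPKM in the 7 with it, so that these did not overlap. How many of all genes separate in this way was not counted, so the G6pc separation cannot be called unusual. Pck1 was at most 0.216 FPKM in any library.

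Inner pathway genes moved both ways in co-culture itself. Over the whole list, 12 of 42 genes were higher and 18 lower with WT cells, beside 30.1% and 31.9% of all genes. With KO cells 15 were higher and 17 lower, beside 30.3% and 31.2%. The largest falls are given first. Cited2, a transcriptional coregulator counted among FOXO targets, went from 108 FPKM alone to 49.96 and 48.9 FPKM with WT and KO cells, a difference of -1.10 ± 0.06 and -1.13 ± 0.06 (limma, adjusted p = 1.11e-09 and 8.44e-10). Pik3cb, a catalytic subunit of PI3-kinase, differed by -1.05 ± 0.06 and -1.14 ± 0.06 (adjusted p = 7.64e-10 and 3.10e-10), and Foxo6 by -1.23 ± 0.10 and -1.32 ± 0.10 (adjusted p = 1.07e-07 and 4.78e-08). Pik3r1, the regulatory subunit gene, rose by 0.66 ± 0.06 and 0.80 ± 0.06 (adjusted p = 3.75e-07 and 3.96e-08). Pik3r2, Foxo1, Foxo4, Tsc2, Mtor and Rptor, named after their values were seen, were also called higher in both co-cultures. Deptor, Ddit4 and, beside WT cells, Rictor led the rises over monoculture in the inhibitor groups, by 1.31, 1.05 and 0.74 in that order beside WT cells.

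Between cancer cell genotypes without inhibitor, 0 of the 42 list genes passed with limma, 0 with voom, beside 1.65% and 1.34% of all genes called higher and lower, and 5 had an unadjusted p below 0.05, beside 14.2% of all genes. In the interaction 0 passed with either method, and 6 had an unadjusted p below 0.05, beside 10.9% of all genes. With the inhibitor 2 passed, beside 1.66% and 0.649% of all genes called higher and lower, and both were higher beside KO cells: Irs2 (0.20 ± 0.03, adjusted p = 0.00449) and Foxo3 (0.24 ± 0.05, adjusted p = 0.0231). The Foxo3 call was lost without any 1 of the WT libraries with inhibitor (0.0554 to 0.118) or KO libraries 1 to 3 with inhibitor (0.0539 to 0.0776). The list median there was -0.00, as over all genes.

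Genes whose pattern was most like that of a member were taken as the 3 protein-coding genes with the highest Pearson correlation of log2(FPKM + 1) over the 16 libraries, which fall into 5 groups, for members spanning at least 1 log2 unit between group means. For Igfbp1 these were Klf9 (r = 0.993), Irf9 (0.992) and Bcl6 (0.992). Klf9 ran from 27.9 to 83.1 FPKM between its lowest and highest group means. For Igfbp3 they were Rnf123 (0.976), Ahnak2 (0.968) and Hmga1 (0.964). Igfbp7 was matched by Edn1 (0.996), which encodes the peptide endothelin-1, Wdhd1 (0.995) and the mitotic kinase gene Cdk1 (0.994), which went from 1.84 to 16.2 FPKM. Igf1r was matched by Rtn4 (0.988), Skp1a (0.980) and 1190002N15Rik (0.978), and Igf2r by Golgb1, Herc2 and Slc39a14 (0.985 each).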

How the data were processed

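RNA was sequenced from 16 libraries of hepatocytes, 3 or 4 per group, grouped by the sample labels. RNA was isolated with an RNeasy mini kit and libraries were made by Novogene procedures, per the labels' protocols. HISAT2 and the builds GRCm38 and mm10 are named per the submitters' processing notes. For the counter, annotation release, strandedness and the version of HISAT2, no statement is given in the sources used here. The authors deposited FPKM per gene for each library separately. FPKM times the deposited gene length was divided by the value of a single fragment, fitted in each library from its low values. This gave whole fragments within 0.1 for 100% of values, those at 0 included, and 15.0 to 21.3 M per library. This precision covers counting error only.

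The test scale was log2(FPKM + 1). A gene entered the test at a mean of at least 1 FPKM, and the 11395 such genes were fitted with limma 3.58.1 in R 4.3.3, with a mean per group, 11 residual degrees of freedom and an intensity trend. All 9 comparisons used two-sided tests, adjusted by Benjamini-Hochberg over these genes, with a threshold of 0.05. The fit was run on simulated data with an assumed spread and far fewer changed genes than the co-culture and inhibitor comparisons called. That run therefore checks the code and not the error rates in these data. Members are always named. Of the pathway list, a fixed set of ligand, complex, protease, adaptor and receptor genes is named, with up to 3 called genes each way per comparison. The members, lists and rules were chosen with earlier results of these data known. Promoter windows are from RefSeq, matched for 9 of 10 members, all but Insr. Alternatives were another pseudocount, no filter, quantile normalization, rescaling without mitochondrial and the 50 top genes, voom on recovered fragments, a fit of only the groups compared, a replicate block, and leaving out each library.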

Additional observations from a re-analysis of the deposited data

How the results depend on the processing

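Of 63 member results, 45 passed the threshold, 3 of these lost it in at least 1 of the 23 alternative settings, and 0 changed sign. Of 889 alternative member values, 865 kept direction and side of the threshold. For KO against WT co-culture, 341 genes passed, 17 in a fit of only the groups compared, and 157 to 398 when 1 library was left out (157 without KO library 3). The 3 members called there became 1 in the fit of only the groups compared, 1 with the replicate block, and 1 to 2 without 1 library, and the uncalled Igf1r difference ran from -0.0459 to 0.0931 over those omissions. For the interaction, 93 genes passed, 55 with no filter, 41 in a fit of only the groups compared, 34 with the replicate block, and 31 to 120 without 1 library. Its 0 members became 1 with quantile normalization, and the uncalled Igfbp1 interaction ran from -0.0283 (without KO library 2) to 0.275. For KO against WT with inhibitor, 263 genes passed, and 123 to 221 without 1 library. The 1 member there became 2 with quantile normalization, 2 with voom, 2 in a fit of only the groups compared, and 0 to 1 without 1 library. The replicate block changed no other member count by over 1.5 times. With the replicate block, KO against WT gave Igf2r an adjusted p of 0.0551 and Insr 0.0867 (limma). Replicate numbers were not taken as pairs, since deviations of same-numbered libraries correlated at -0.300 to 0.270 (median 0.0104) and 3 of 16 libraries correlated best with their own number. The causes of these changes were not tested, beyond the smaller number of libraries in some settings. Depth limits Igfbp2, Igfbp5 and Igfbp6, with 3, 10 and 47 fragments in all. The same settings were applied to the pathway list after seeing the data, and of 720 values for its named genes 696 kept direction and side of the threshold and 24 lost the call (Igfals, Foxo3 and, beside KO cells with inhibitor, Stc2).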
